A study of Mus musculus with 2 samples.

Results

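The Bcl2 family decides whether the outer membrane of the mitochondrion stays intact, and 10 of its genes were compared here between differentiating mouse ESCs with and without an induced knockout of Ino80, the ATPase of a chromatin remodeling complex. The genes were taken by symbol from the 24354 genes of the deposited expression values, and all 10 were found. They comprise 3 survival genes (Bcl2, Bcl2l1 and Mcl1), 2 effector genes (Bak1 and Bok) and 5 genes of BH3-only proteins (Bcl2l11, Bid, Bad, Bik and Bmf). Survival proteins hold the effectors in check, BH3-only proteins bind the survival proteins or the effectors themselves, and freed effectors open the membrane, releasing cytochrome c, which leads to caspase activation. Pluripotent cells and their early descendants are known for being close to this threshold.

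Each condition had 1 RNA-seq library. The control cells (Diff–CONT, genotype label WT) came from blastocysts homozygous for the floxed Ino80 allele (Ino80 2f/2f), and the knockout cells (Diff–iKO, genotype label Ino80 knockout) carried the same allele together with CreER driven from the ROSA26 locus, which is active in most cell types. Both were primed in serum medium, formed EBs in medium with 8% KSR, were moved to gelatin-coated dishes at day 4, and from the following day were kept for 7 days in differentiation medium with 15% FBS, BMP4 and 0.5 µM 4-OHTM, the ligand that activates CreER. The number of lines or cultures behind each library is not given in the sources used here, so differences between lines, cultures and genotypes cannot be told apart and no test between the conditions was possible. The values are FPKM, which divides the fragments of a gene by transcript length and library size, so levels of different genes can be set side by side. The steps between low FPKM values placed about 27531526 fragments in genes under the Diff–CONT label and 21423984 under the other. The fragments behind each gene gave a 95% interval for its log2 ratio, and this interval covers counting error only.

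Ino80 itself had an FPKM of 8.90 under the Diff–CONT label and 10.3 under the Diff–iKO label, a log2 ratio of 0.21 with an interval of 0.11 to 0.31. The gene as a whole was thus not lower under the knockout label, and FPKM per gene does not resolve the deleted exon. Each direction below is therefore that of the label, with Diff–CONT as the reference. Xist, which silences an X chromosome in female cells, was at 0.0639 and 3.59, while the Y-linked gene Ddx3y was at 4.07 and 1.89.

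The cells in the 2 libraries also differed in their lineage markers. The summed FPKM of 5 pluripotency genes was 131 under the Diff–CONT label and 433 under the Diff–iKO label, with 5 of 5 genes higher (Pou5f1 60.8 and 247, Nanog 19.5 and 81.2). Markers of visceral endoderm summed to 158 and 6.85 (5 of 5 lower). Those of blood summed to 95.2 and 3.75 (3 of 3 expressed genes lower). Most of the Diff–CONT sum was the globin genes Hba-x (54.9, listed at 0 under the Diff–iKO label) and Hbb-y (35.0 and 0.102). Runx1 was at 4.59 and 3.22, and Gata1 at 0.621 and 0.416 with an interval (-1.54 to 0.33) that included 0. Cardiomyocyte markers summed to 28.3 and 7.57 (4 of 4 expressed genes lower). Trophoblast markers summed to 86.2 and 44.2 (3 of 4 expressed genes lower), most of it Hand1 (70.8 and 31.3). Cdx2 was also lower (4.00 and 0.705), and Ascl2 was higher (1.00 and 2.03). Gata3 was at 10.3 and 9.85, and the interval of its log2 ratio (-0.21 to 0.08) included 0. Mesenchyme markers summed to 1335 and 1424, most of it Col1a1, while the other 4 of the 5 genes were lower, among them Col3a1 (386 and 187) and Pdgfra (19.1 and 4.65). Neural markers summed to 108 and 101, with 4 of 5 genes lower and Nes higher (28.8 and 44.1). Endothelial markers were at 48.2 and 66.1, with Pecam1 higher and the other 4 lower. Whether these shifts contribute to the Bcl2 family values was not tested, and in bulk RNA fewer cells of a type and less RNA per cell cannot be told apart.

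Promoter sequences are shown for the 4 genes with the highest and lowest ratios among the 10, as the DNA next to the transcripts described below. They come from RefSeq (GRCm38.p6), whose promoter table held 15 starts for 9 of the 10 genes, all but Bik. Each sequence runs 5′ to 3′ on the strand of its gene and ends at or near the start furthest upstream, without bases that GENCODE places in an exon. Capitals mark the GC box (GGGCGG, bound by Sp1), the box named CCAAT after its letters (bound by NF-Y), and an ETS motif (CCGGAAG), each on either strand. Mcl1 and Bid, the genes with the highest ratios, lay at chr3:95658471-95658720 on the + strand and chr6:120916854-120917074 on the - strand.
Mcl1: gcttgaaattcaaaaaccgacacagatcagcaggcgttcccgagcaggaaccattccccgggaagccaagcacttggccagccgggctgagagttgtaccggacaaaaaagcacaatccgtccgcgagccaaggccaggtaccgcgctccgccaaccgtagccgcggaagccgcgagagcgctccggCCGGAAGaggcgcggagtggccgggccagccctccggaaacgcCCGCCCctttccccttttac
Bid: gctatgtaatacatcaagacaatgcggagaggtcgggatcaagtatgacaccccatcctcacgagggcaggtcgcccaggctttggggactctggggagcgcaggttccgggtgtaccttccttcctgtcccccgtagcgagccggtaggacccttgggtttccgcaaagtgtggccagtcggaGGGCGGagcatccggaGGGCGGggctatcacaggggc
Bcl2l11 and Bmf, the genes with the lowest ratios, lay at chr2:128125788-128126037 on the + strand and chr2:118549688-118549936 on the - strand.
Bcl2l11: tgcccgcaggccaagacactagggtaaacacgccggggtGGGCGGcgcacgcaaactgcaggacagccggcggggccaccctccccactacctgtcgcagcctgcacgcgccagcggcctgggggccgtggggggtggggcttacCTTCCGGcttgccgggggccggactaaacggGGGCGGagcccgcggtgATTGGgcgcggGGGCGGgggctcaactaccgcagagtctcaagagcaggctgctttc
Bmf: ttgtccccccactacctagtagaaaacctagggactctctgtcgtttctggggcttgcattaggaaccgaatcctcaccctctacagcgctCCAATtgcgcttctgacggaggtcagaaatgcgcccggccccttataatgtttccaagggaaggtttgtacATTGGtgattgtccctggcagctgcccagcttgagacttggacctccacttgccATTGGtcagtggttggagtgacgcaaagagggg
The Bmf sequence held 3 CCAAT boxes and no GC box, whereas the 221 bases shown for Bid held 2 GC boxes and no CCAAT box. Mcl1 held 1 GC box and 1 ETS motif. Bcl2l11 held 3 GC boxes, 1 CCAAT box and 1 ETS motif. Over the 250 bases before each start, a GC box was present in 7 of the 15 windows of the family and in 32.7% of 32851 mouse promoter windows of that length. A CCAAT box was present in 5 of 15 against 33.8%, and an ETS motif in 2 of 15 against 6.91%. The TATA motif (TATAAA) was in 0 of the 15 windows and in 12.4% of all. The p53 half-site was in 1 of 15 and in 7.13% of all, and a FOXO motif (TGTTTAC) in 1 of 15, that of Bcl2l11 shown above, and in 3.17% of all. An E-box (CANNTG) was in 9 of 15 and in 66.2% of all. The core of the hypoxia element (ACGTG or its variant with G in first place) was in 4 of 15 and in 38.6%, and a CRE-like motif (TGACG) in 2 of 15 and in 17.8%. All motifs were searched on both strands. These matches describe the letters of the windows. Bcl2l11 has 2 and Bmf 3 listed starts, and FPKM per gene does not show which of them was used.

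Among the survival genes, Mcl1 carried most of the expression and most of the difference. Mcl1, on chromosome 3 from 95658788 to 95663176 of GRCm38 (mm10), encodes a short-lived survival protein that restrains Bak1 and binds most BH3-only proteins. Its FPKM was 57.4 under the Diff–CONT label and 100.1 under the Diff–iKO label. The log2 ratio was 0.80 (interval 0.75 to 0.85, 1.75-fold), and it rested on 5544 and 7230 fragments. Of the 12376 genes with FPKM ≥ 2 in at least 1 library, 9.30% had a higher ratio of FPKM + 0.1. Its level stood at the percentile 89.7 of these genes under the first label and 94.2 under the second. Bcl2l1, on chromosome 2 from 152780668 to 152831728, encodes Bcl-xL in its long form and the death-promoting Bcl-xS in its short form, which FPKM per gene does not separate. Bcl2l1 was at 34.7 and 38.3, a log2 ratio of 0.14 (0.06 to 0.23), and the interval includes 0 (-0.04 to 0.14) when each library is scaled to the same sum. Bcl2, the founding gene of the family, on chromosome 1 from 106538178 to 106714274, was at only 2.34 and 1.79, a log2 ratio of -0.38 (-0.75 to -0.04). An annotated antisense gene, D630008O14Rik, overlaps Bcl2 over 558 exonic bases. The 3 survival genes thus did not share a direction. Bcl2 made up 2.48% of their summed FPKM under the Diff–CONT label and 1.28% in the other, while the share of Mcl1 was 60.8% and 71.4%.

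Neither effector gene of the 10 differed beyond counting error. Bak1, on chromosome 17 from 27019810 to 27029009, encodes a pore former that sits in the outer membrane of healthy cells. It was at 20.9 under the Diff–CONT label and 20.6 under the Diff–iKO label, with a log2 ratio of -0.01 (-0.13 to 0.10). Bok, on chromosome 1 from 93685660 to 93695764, encodes an effector that is largely insensitive to the survival proteins and is controlled by protein turnover. Bok was at 5.11 and 4.15, a log2 ratio of -0.30 (-0.63 to 0.04) on 195 and 119 fragments. Both intervals include 0, although that of Bok excludes it (-0.73 to -0.05) when each library is scaled to the same sum. Ggnbp1, a gene on the other strand, overlaps Bak1 over 614 exonic bases and was at 3.90 and 5.78.

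The BH3-only genes showed the widest spread of the 3 classes, with Bmf lower, Bcl2l11 lower and Bid higher. Bmf, on chromosome 2 from 118528757 to 118549687, encodes a protein held at the actin-based motor complex through the dynein light chain Dynll2. Its FPKM was 24.2 under the Diff–CONT label and 9.54 under the Diff–iKO label. The log2 ratio was -1.34 (-1.47 to -1.21), which makes Bmf 2.53-fold lower, on 2090 and 617 fragments. Of the 12376 genes, 4.61% had a lower ratio. Its level stood at the percentile 70.3 under the Diff–CONT label and 40.4 under the other, the widest move of the 10 genes. Bcl2l11, on chromosome 2 from 128126038 to 128162547, encodes Bim, a potent BH3-only protein that binds all survival proteins and can activate the effectors. Bcl2l11 was at 17.8 and 11.1, a log2 ratio of -0.68 (-0.83 to -0.53) and 1.60-fold lower. Bid, on chromosome 6 from 120891930 to 120916853, encodes the protein that caspase-8 cleaves to link death receptors to mitochondria. Bid was at 10.3 and 16.9, 1.64-fold with a log2 ratio of 0.72 (0.56 to 0.87). Its 3′ end overlaps that of Bcl2l13 on the other strand over 628 exonic bases. Bcl2l13 had the opposite direction, with 14.8 and 8.28. The library kit keeps the strand, but the strand setting of the quantification is not given in the sources used here, so reads from the shared bases cannot be assigned.

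For the other BH3-only genes the counting intervals included 0. Bad, on chromosome 19 from 6941861 to 6951899, encodes a protein that binds Bcl-xL and Bcl2 and is silenced by phosphorylation. It was at 17.4 and 16.3 (log2 ratio -0.10, -0.32 to 0.12). Gpr137 on the other strand shares 524 exonic bases with Bad and was at 15.6 and 19.6. Bik, on chromosome 15 from 83526862 to 83544634, encodes a BH3-only protein located mainly at the endoplasmic reticulum. Bik was at 2.20 and 1.82 on only 50 and 31 fragments, and its ratio of -0.27 had the widest interval of the 10, from -0.96 to 0.41. The depth thus leaves room for a larger difference in Bik than in Bad.

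**Figure D1:**
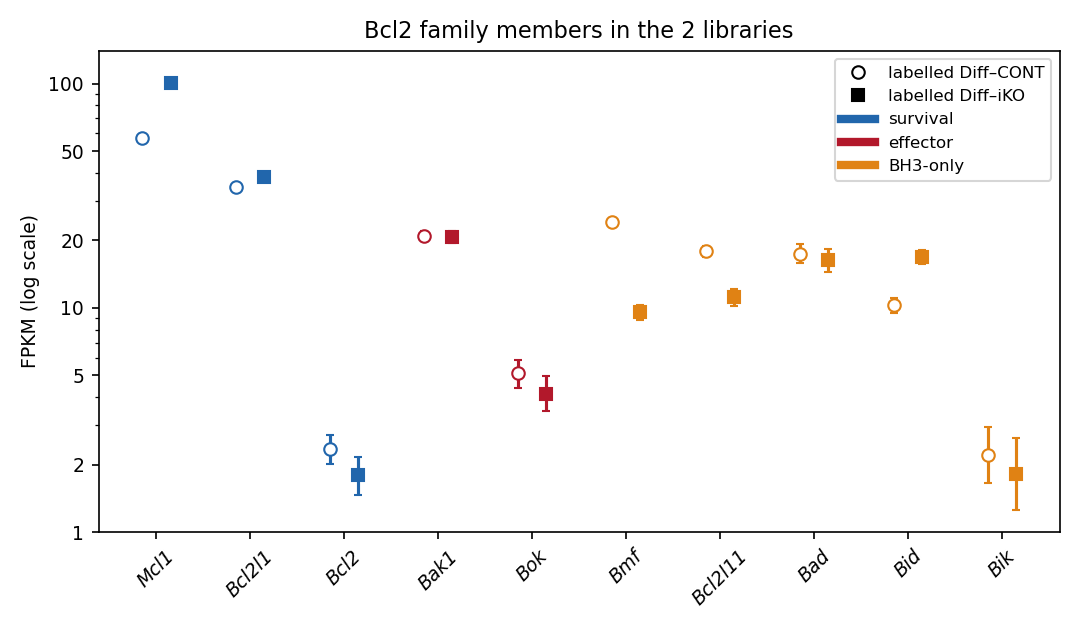
FPKM of the 10 Bcl2 family genes on a log axis, with open circles for the Diff–CONT library, filled squares for the library labelled Diff–iKO, bars for exact 95% counting intervals, and colours for the class. Mcl1 stands highest in both libraries (57.4 and 100.1), and Bmf stands above Bid and Bcl2l11 in the first library (24.2) and below both in the second (9.54), where the intervals of Bmf and Bcl2l11 overlap.

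The order of the levels differed between the libraries in the middle of the family and not at its top. In the Diff–CONT library, Mcl1 was followed by Bcl2l1, Bmf, Bak1, Bcl2l11, Bad, Bid, Bok, Bcl2 and Bik. The counting intervals of neighbours overlapped for Bcl2l11 and Bad and for Bcl2 and Bik. In the library labelled Diff–iKO, Mcl1 and Bcl2l1 were followed by Bak1, Bid, Bad, Bcl2l11, Bmf, Bok, Bik and Bcl2. Here the intervals of Bid and Bad, of Bcl2l11 and Bmf, and of Bik and Bcl2 overlapped. Bmf thus went from rank 3 to rank 7 and Bid from rank 7 to rank 4. Within the BH3-only class, Bmf held 33.6% of the summed FPKM under the Diff–CONT label and 17.2% in the other. Bid held 14.3% and 30.3%.

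With the cut-off of the study's methods, FC ≥ 2 and FPKM ≥ 2, taken here without a pseudocount and as FPKM ≥ 2 in at least 1 library, 1 of the 10 genes was past it. That gene was Bmf, on the lower side. Over the whole table the same cut-off was passed by 15.1% of the 12376 genes at or above the FPKM minimum, 6.73% higher and 8.39% lower. With a fold of 1.5, 2 genes (Mcl1 and Bid) were higher and 2 (Bcl2l11 and Bmf) lower, 4 of 10 against a background of 32.5% (14.9% higher and 17.6% lower). The counting interval excluded 0 for 6 of the 10 genes, 3 higher and 3 lower, and for 78.0% of 11877 genes, 38.6% higher and 39.3% lower. With each library scaled to the same sum it excluded 0 for 2 higher and 4 lower genes of the 10, Bcl2l1 being lost and Bok gained. That scaling lowered every log2 ratio by 0.09, and the interval share over all genes was not computed under it. At a fold of 2 it moved the counts over all genes from 833 higher and 1038 lower to 702 and 1226. The median log2 ratio of FPKM + 0.1 was 0.14 for the survival genes, -0.15 for the effectors and -0.26 for the BH3-only genes, beside -0.01 for the 13145 genes of the table that averaged an FPKM of 1 or more.

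**Figure D2:**
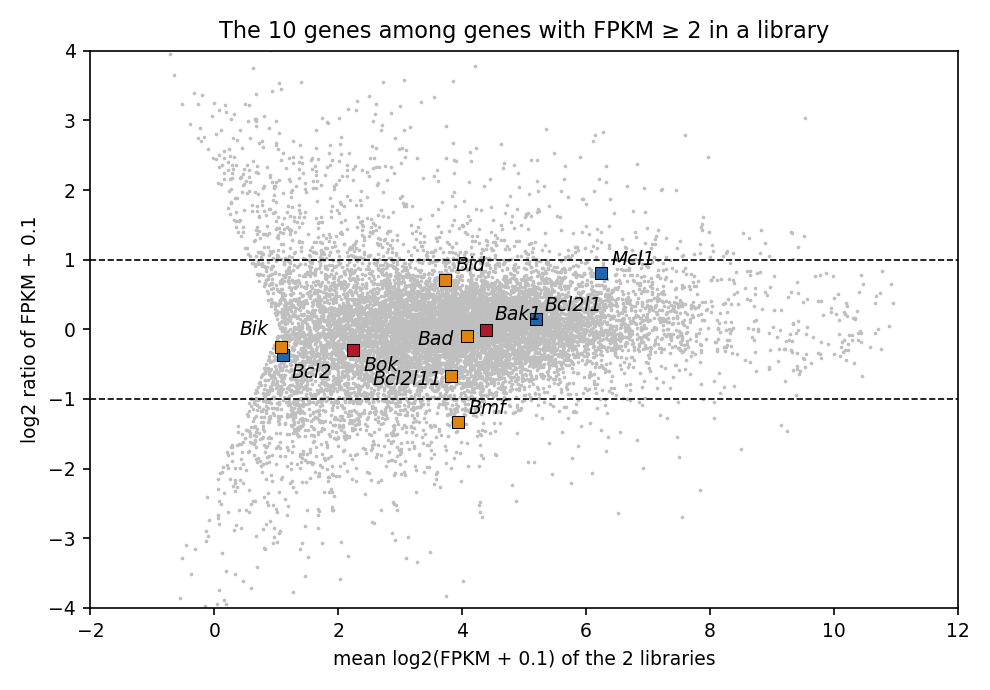
Log2 ratio of FPKM + 0.1 (labelled Diff–iKO over Diff–CONT) against the mean log2 level, with grey points for the 12376 genes with FPKM ≥ 2 in a library (54 beyond a log2 ratio of 4 in either direction are not drawn). Squares are the 10 genes, blue for survival, red for effector and orange for BH3-only. Dashed lines mark a 2-fold difference, and Bmf is the only square outside them.

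The balance of survival against death genes was compared by adding the FPKM of each class. The survival genes summed to 94.4 under the Diff–CONT label and 140.2 under the Diff–iKO label, a fold of 1.49. The BH3-only genes summed to 71.9 and 55.6, and the effectors to 26.0 and 24.8. Set against the effectors alone, survival transcripts were 3.63 times as abundant under the Diff–CONT label and 5.66 times under the other, a log2 change of 0.64 (0.52 to 0.76) that was 0.18 (0.04 to 0.32) without Mcl1 and 0.42 (0.08 to 0.76) without the highest gene of each class. Survival transcripts were 0.964 times the effector and BH3-only transcripts under the Diff–CONT label (counting interval 0.930 to 0.9997) and 1.74 times under the Diff–iKO label (1.67 to 1.82). These ratios are formed within a library and do not depend on the scaling between them. The log2 change of the last was 0.85 (0.77 to 0.94). Without the highest gene of each class, Mcl1, Bak1 and Bmf, it was 0.19 (0.06 to 0.32). Without Mcl1 it was 0.40 (0.29 to 0.51). Without Bmf it was 0.63 (0.54 to 0.72), and without Bid it was 1.03 (0.95 to 1.12). The highest gene of a class was taken by mean FPKM of the 2 libraries. Bmf (24.2 and 9.54) led the BH3-only class only under the Diff–CONT label, and Bad (17.4 and 16.3) was next by mean. Sums without Bad in place of Bmf were not formed.

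The balance also depended on Bax, the effector gene outside the 10. Bax encodes the pore former that moves from the cytosol to mitochondria, and it had the highest FPKM of the expressed family. It was at 109 and 185, a log2 ratio of 0.77 (0.69 to 0.85). Gm45808, an annotated protein-coding gene on the same strand, overlaps Bax over 192 exonic bases and has no deposited value under that symbol. With Bax among the effectors, survival transcripts were 0.457 times the effector and BH3-only transcripts under the Diff–CONT label and 0.528 times under the Diff–iKO label, a log2 change of 0.21 (0.14 to 0.28). With all other survival, effector and BH3-only genes of the family added, the ratios were 0.439 and 0.487, a log2 change of 0.15 (0.09 to 0.21). Against the effectors alone the direction turned. With Bax included, survival transcripts were 0.702 and 0.668 times as abundant, a log2 change of -0.07 whose interval of -0.15 to 0.01 includes 0. With all the other family genes of the classes added they were 0.812 and 0.744 times as abundant, a log2 change of -0.13 whose interval of -0.21 to -0.04 excludes 0. Mcl1 and Bax stood in nearly the same proportion in both libraries, at 0.529 and 0.541.

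**Figure D3:**
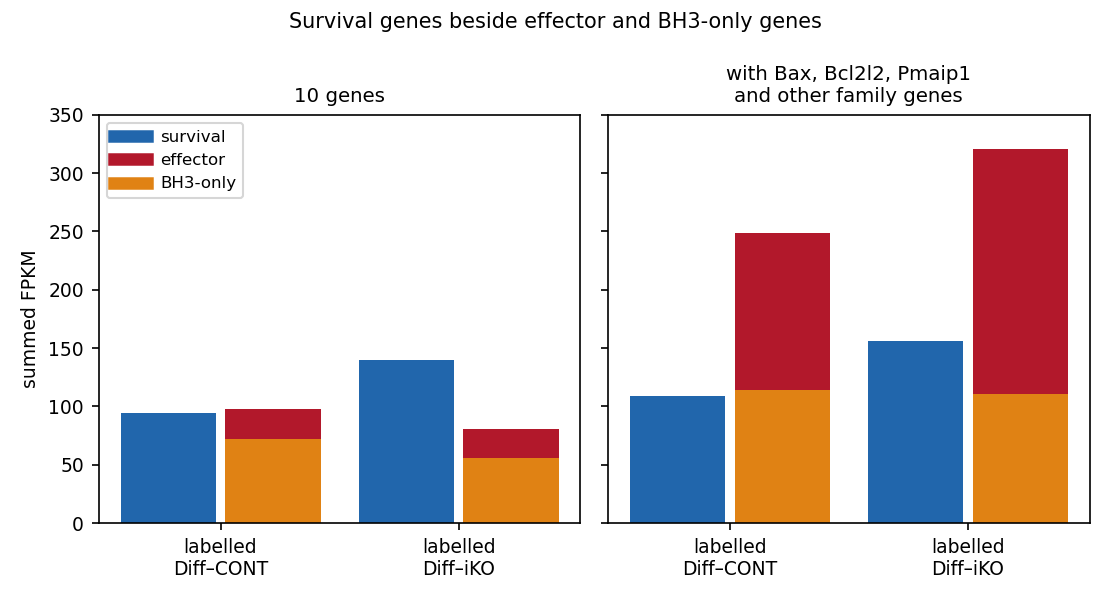
Summed FPKM of survival genes (blue) beside effector (red) and BH3-only (orange) genes in each library, on the left for the 10 genes and on the right with the other family genes added. On the left the survival bar is at 94.4 and 140.2 against 97.8 and 80.4 for the stacked bar, and on the right the stacked bar is the higher in both libraries.

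Pairs of genes whose proteins are known to bind each other were also compared within each library. Mcl1 transcripts were 2.37 times those of Bmf under the Diff–CONT label and 10.5 times under the Diff–iKO label. Mcl1 and Bmf are the genes with the highest and lowest ratios among the 10. The ratio of Mcl1 to Bcl2l11 was 3.21 and 8.99, and that of Mcl1 to Bak1 was 2.75 and 4.85. For these pairs the interval of the log2 change excluded 0. Mcl1 to Bid was at 5.59 and 5.94, with a log2 change of 0.09 (-0.08 to 0.25). Bcl2l1 to Bcl2l11 was at 1.94 and 3.44, and Bcl2l1 to Bax at 0.319 and 0.207. Smaller log2 changes were those of Bcl2l1 to Bad (1.99 and 2.36, 0.24, 0.01 to 0.48) and Bcl2l1 to Bak1 (1.66 and 1.86, 0.16, 0.01 to 0.31). Bcl2 to Bcl2l11 was at 0.131 and 0.161, a log2 change of 0.30 (-0.08 to 0.67). Within the BH3-only class, and not as a binding pair, Bmf was 2.36 times Bid under the Diff–CONT label and 0.566 times under the Diff–iKO label.

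Of the other 15 family genes listed, 8 had an FPKM of at least 1 in either library, and 1 of these 8, Bnip3, was past the cut-off, beside the 15.1% of all genes. Bcl2l2, a survival gene, was at 14.8 and 15.6. Pmaip1, which encodes Noxa, the BH3-only partner of Mcl1, was at 28.5 and 41.4 (log2 ratio 0.54, 0.45 to 0.62), and Bbc3, which encodes Puma, at 12.9 and 13.3. Mcl1 to Pmaip1 was at 2.02 and 2.42. The 4 expressed relatives outside the 3 classes were all lower beyond counting error under the Diff–iKO label, as 39.3% of all genes were. Bnip3, a mitophagy receptor gene induced by hypoxia, was at 81.8 and 29.2 (-1.48, -1.59 to -1.39), and its paralogue Bnip3l at 58.0 and 35.4 (-0.71, -0.78 to -0.64). Bcl2l13, another mitophagy receptor gene, had a log2 ratio of -0.84 (-0.93 to -0.74), and Bcl2l12 was at 18.7 and 12.1. The 3 Bcl2a1 genes were listed at 0 in both libraries. Bcl2l10 rested on 1 and 7 fragments.

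**Figure D4:**
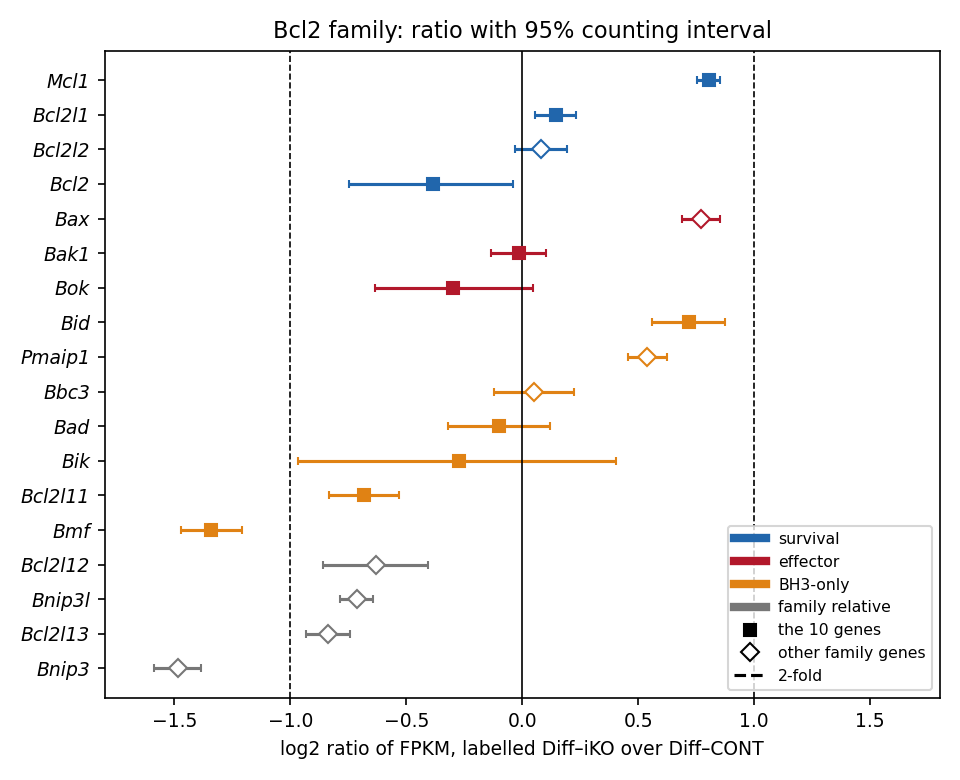
Log2 ratio of FPKM (labelled Diff–iKO over Diff–CONT) with its 95% counting interval for the 10 genes (filled squares) and the other family genes with FPKM of at least 1 (open diamonds), coloured by class. Bmf and Bnip3 lie beyond the dashed 2-fold line, and Mcl1, Bax and Bid lie between 0.72 and 0.80.

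Genes that act downstream of and around the family were taken from lists made by role, and 1 of the 35 with FPKM ≥ 2, Mapk3, was past the cut-off (lower, 82.7 and 39.1), against the 15.1% of all genes. Among the apoptosome and caspase genes 0 of 7 were past it. The 5 caspase genes analysed were all lower beyond counting error, as 39.3% of all genes were, with log2 ratios from -0.87 to -0.52. Casp6, an executioner caspase gene, was at 16 and 11.2, and Casp9, the initiator at the apoptosome, at 10.1 and 6.15. Cycs, the gene of cytochrome c, was higher (10.6 and 17.9, log2 ratio 0.76, 0.64 to 0.89), and Apaf1, the scaffold of the apoptosome, was at 19.1 and 20.1. Among 6 genes of inhibitors of apoptosis and their antagonists, Xiap was at 18.6 and 22.7, Diablo at 21.7 and 18.1, and Htra2 at 25.1 and 23.6. The channel genes Vdac1 (196 and 212), Vdac2 (130.3 and 124) and Vdac3 (52.2 and 45.4) differed little. Vdac2 anchors Bak1 in the outer membrane.

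Of 13 genes for anchors, kinases and turnover partners of the family, 6 were higher and 6 lower beyond counting error, beside 38.6% and 39.3% of all genes. Dynll1, whose product anchors Bim, was at 79.5 and 90.4, and Dynll2, which anchors Bmf, at 59.5 and 52.8. Ywhae, a 14-3-3 gene whose product holds phosphorylated Bad in the cytosol, was at 371 and 291, and Akt1, a Bad kinase gene, at 94.9 and 100.2. Enzymes that set Mcl1 protein lifetime were also listed. Fbxw7, a ubiquitin ligase subunit gene, was at 9.63 and 11.8. Huwe1, a ubiquitin ligase gene for Mcl1, was at 55.7 and 78.2 (log2 ratio 0.49, 0.46 to 0.52), and Usp9x, which encodes a deubiquitinase of Mcl1, at 32.3 and 53.2 (0.72, 0.68 to 0.76). Huwe1, Usp9x and Xiap lie on chromosome X, and Xist differed between the libraries as given above. Its part in these values was not tested. Among the upstream transcription factors, Trp53 was at 86.0 and 116 (0.44, 0.37 to 0.50), Ddit3 at 17.4 and 22.9, and Atf4 at 115 and 110.2. Foxo3, a known activator of Bcl2l11, was at 14.8 and 10.4 (-0.50, -0.64 to -0.36).

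**Figure D5:**
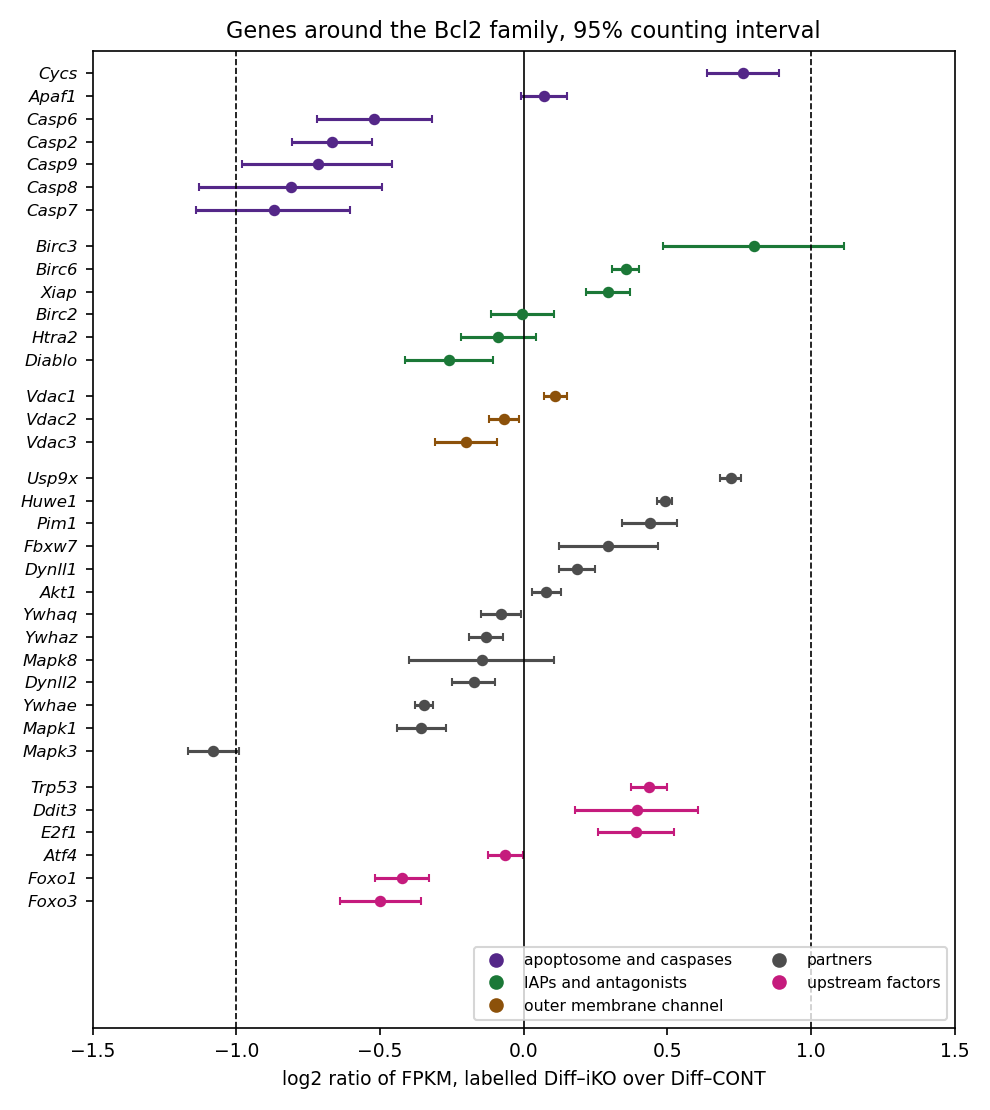
Log2 ratio of FPKM (labelled Diff–iKO over Diff–CONT) with its 95% counting interval for 35 genes around the family, coloured by list, with dashed lines at a 2-fold difference. The 5 caspase genes lie between -0.87 and -0.52, and Mapk3 alone is beyond the 2-fold line.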

How the data were processed

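Poly(A) RNA was sequenced from 1 Diff–CONT and 1 Diff–iKO library. The authors deposited FPKM values for 24354 genes, which the submitters' processing notes trace to STAR 2.7.9a on mm10 and to Cuffnorm of Cufflinks 2.2.1. Cuffquant is also named in the methods, in a paragraph that opens with public datasets. The gene annotation, strand setting and number of reads are not given in the sources used here. The 2 columns were assigned by their names, and 0 other value columns were present.

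Log2 ratios were taken per gene without a pseudocount, and class medians with a pseudocount of 0.1 over genes that averaged an FPKM of 1 or more. Among 13085 single-transcript genes (RefSeq, 1000 nucleotides or longer), 87.3% of low values in each library lay within 0.2 of a whole multiple of 1 fragment, against 40% by chance, after 190 nucleotides were taken off each transcript length. The shortest RefSeq transcript of a gene set its fragment number. Intervals are exact Clopper-Pearson intervals (ratios) or exact Poisson intervals (levels). Intervals for sums and pairs use a normal approximation on the log scale. All are at 95% and cover counting error only. The step fit and the cut-off were tested on simulated data. Coordinates are from GENCODE vM21.

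The genes and lists were chosen with earlier results of these data known. The text names the 10 genes, other family genes with FPKM of at least 1, and from each pathway list the 3 highest genes and any past the cut-off. 1 of the listed genes is not reported here and was left out of the list counts. Casp9, Fbxw7, Huwe1, Usp9x, Dynll2 and Foxo3 were named after their values were seen, as were the ranges over the caspase genes and the family genes at or near 0. The sums with Bax alone, or without Bmf, Bid or Mcl1, were also chosen after the values were seen. The alternatives were other pseudocounts, filters, folds, scalings, transcript lengths and members of the sums. Scripts ran in Python 3.11.15 with scipy 1.17.1, numpy 2.4.6 and pandas 2.3.3, and plots were drawn with matplotlib 3.10.9.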

Additional observations from a re-analysis of the deposited data

How the results depend on the processing

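Each condition had 1 library, so none could be left out. No paired analysis was possible because the labels give 1 sample per group and the result comes from no test. The count of the 10 genes past the cut-off was 0 higher and 1 lower under each alternative tried except those on the fold, where a minimum of 1.5 gave 2 higher and 2 lower and a minimum of 4 gave 0 in both directions. For all genes, the 833 higher and 1038 lower became 1846 and 2177 at a fold of 1.5, 278 and 237 at a fold of 4, 1324 and 1578 at an FPKM minimum of 0.5, 488 and 569 with FPKM ≥ 2 in both libraries, 2794 and 2761 without a minimum, and 807 and 1002 with a pseudocount of 0.1. The higher and lower counts were 566 and 671 at an FPKM minimum of 5, and 646 and 712 with a pseudocount of 1. With each library scaled to the same sum they were 702 and 1226.

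The median log2 ratio of the survival genes was 0.050 with each library scaled to the same sum and 0.47 when a mean FPKM of 5 was required, which leaves out Bcl2. In the same settings the median of the effectors moved from -0.15 to -0.25 and to -0.01, the latter from Bak1 alone. The scaling lowered each log2 ratio by 0.09, so the ratio of Bcl2l1 became 0.051 and its counting interval then included 0, that of Bok (-0.73 to -0.05) then excluded 0, and the signs of Bcl2l2, Bbc3, Apaf1 and Akt1 turned. Of 75 single-gene values over 15 family genes under other pseudocounts and scalings, 70 stayed within the counting interval and 5 left it, each under the same-sum scaling. Of those with an interval excluding 0, 0 changed direction. The 15 were the 10 genes with Bax, Bnip3, Bnip3l, Bcl2l13 and Pmaip1. Bcl2l2 and Bbc3, whose signs turned, and Bcl2l12 were not among them.

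The log2 change of survival over effector and BH3-only sums moved from 0.85 to 0.19 without the highest gene of each class by mean FPKM. It moved to 0.15 with all other genes of the 3 classes and to 0.21 with Bax. It moved to 0.63 without Bmf, to 1.03 without Bid and to 0.40 without Mcl1. Against BH3-only genes alone it moved from 0.94 to 0.17, 0.56, 0.62, 1.24 and 0.49 in the same order, without the setting for Bax. Both kept their direction in each of these. Against effectors alone it moved from 0.64 to 0.42 without the highest gene of each class and to 0.18 without Mcl1, and it reversed to -0.13 with all other genes of the 3 classes and to -0.070 with Bax. Depth limits Bik, Bok and Bcl2 most, each with under 200 fragments in either library. For Bcl2 this number rests on its shortest RefSeq transcript (2841 nucleotides). With the longest (7191 nucleotides) the interval of its log2 ratio was -0.60 to -0.17.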

Other observations

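Bmf, the gene with the largest difference among the 10, lies on chromosome 2 as Ino80 does, 823 kb from it. The 18 genes between them with FPKM ≥ 2 in at least 1 library had a median log2 ratio of FPKM + 0.1 of 0.01, with 9 higher and 9 lower. Of these, 2 were past the cut-off, Ivd and Dll4, both lower, beside 15.1% of all genes past it and 8.39% lower. These neighbours were looked at after the value of Bmf was seen. Bcl2l1 and Bcl2l11 are on the same chromosome and had log2 ratios of 0.14 and -0.68.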
